A study of Mus musculus with 4 samples.

Results

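Potassium channel genes were described in astrocytes, glial cells that support neurons, grown from wild-type mice (WT) and from CD38 knockout mice (CD38 KO). Members were the gene rows whose symbol starts with Kcn, without Kcnj10, Kcnj16 and Kcnq1ot1, which left 96 of 55467 genes in 21 families, named by the letters after Kcn. Of the 96, 92 encode channel subunits or a regulator and 4 are named as opposite-strand transcripts. The series compares 2 WT libraries with 2 CD38 KO libraries. All 4 come from cortices of pups aged 1 to 3 days, kept 14 days in medium with 10% serum, shaken for 12 h to remove loose cells, replated and harvested 5 days later. The mouse strain, the deleted part of Cd38 and whether the replicates are separate cultures are not given in the labels, so p-values measure only the spread between these libraries. If the strains differ, strain and genotype cannot be told apart here.

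Potassium channels let potassium ions leave or enter a cell along their gradient and so set its resting voltage and shape its electrical signals. Pore-forming subunits open with voltage (Kcna, Kcnb, Kcnc, Kcnd, Kcnh, Kcnq), pass current best inwards (Kcnj), leak at rest (Kcnk) or open with calcium or sodium inside the cell (Kcnma, Kcnn, Kcnt), while auxiliary subunits (Kcnab, Kcne, Kcnip, Kcnmb) change their gating or traffic. Astrocytes are known for a high resting permeability to potassium, by which they take up potassium released by active neurons.

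Stretches of the coding sequence of 4 called pore-forming members are shown because they hold what makes these genes a family, the selectivity filter through which potassium passes. A script searched the longest coding sequence of each gene in GENCODE M21 on GRCm38 for the codons of the potassium selectivity filter signature (threonine or serine, a branched aliphatic residue, glycine, an aromatic residue or leucine, glycine). It was present in all 75 pore-forming members, those of the silent families included, and absent from the 17 Kcnab, Kcne, Kcnip, Kcnmb and Kcnrg members, and 1.34% of 21492 genes with a complete coding sequence held it. Each sequence below has 45 bases on the coding strand, 5′ to 3′, all from the minus strand of the genome, and capitals mark the 5 codons of the filter. The Kcna6 stretch is chr6:126738632-126738676 in exon 1, Kcnh2 is chr5:24325540-24325584 in exon 7, and Kcnj4 is chr15:79485352-79485396 in exon 2. The Kcnk10 stretches span exons 3 and 4 (chr12:98490043-98496214) and exons 5 and 6 (chr12:98436333-98440634). Kcnk10 carries the signature at 2 places, one in each of its pore domains, as did the other tandem-pore-domain members except Kcnk1 and Kcnk7, in which the search found 1.
Kcna6: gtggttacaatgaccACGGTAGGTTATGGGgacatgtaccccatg
Kcnh2: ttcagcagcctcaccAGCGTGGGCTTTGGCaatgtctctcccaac
Kcnj4: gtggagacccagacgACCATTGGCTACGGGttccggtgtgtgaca
Kcnk10, pore 1: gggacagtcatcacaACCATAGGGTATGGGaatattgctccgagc
Kcnk10, pore 2: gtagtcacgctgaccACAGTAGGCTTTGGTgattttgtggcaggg

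Expression was measured as FPKM, fragments scaled to transcript length and to the mapped fragments of the library, which can be compared between genes. The depth, estimated from the values, ran from 26800000 to 29100000 fragments a library, and 1 fragment on a transcript of 3674 bases, the median over the members, was worth about 0.00996 FPKM. Cd38 was at 3.13 and 3.45 FPKM in WT against 0.0222 FPKM in both CD38 KO libraries, far lower in the libraries labelled CD38 KO. The summed level of 12 astrocyte markers, 11 of them at a mean of at least 1 FPKM, was 4794 and 4739 FPKM in WT and 4021 and 3919 FPKM in CD38 KO, with 9 lower and 3 higher (Aldh1l1, Slc1a2 and Gja1) in both CD38 KO libraries. The summed level of 20 microglia and macrophage markers was 192 and 177 FPKM in WT and 1000.4 and 892 FPKM in CD38 KO, with 19 of 20 higher in both CD38 KO libraries, while the microglial receptor P2ry12 was between 0.243 and 0.633 FPKM in all 4 libraries. Summed markers of the oligodendrocyte lineage ran from 199 to 205 FPKM in WT and from 166 to 179 FPKM in CD38 KO. Of these 12 markers, 8 were lower in both CD38 KO libraries, and Mog, Enpp6 and Gpr17 averaged below 0.1 FPKM. The 13 neuron markers summed to between 135 and 149 FPKM, with 2 higher and 4 lower in both CD38 KO libraries: 6 of them (Rbfox3, Snap25, Nefl, Slc17a6, Gad2 and Dcx) averaged below 0.1 FPKM, whereas Stmn2 was at 30.7 and 28.8 FPKM in WT against 54.8 and 56.1 FPKM, and Gad1 at 71.4 and 81.5 against 46.1 and 41.7 FPKM. In cultures of mixed cells, fewer cells of a type and less RNA per cell cannot be told apart, and the part of these marker levels in the results below was not tested.

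Most potassium channel genes were barely expressed. Of the 96 members, 7 were listed at 0 in all 4 libraries (Kcna10, Kcnj1, Kcnk16, Kcnk18, Kcnmb4os2, Kcns2 and Kcnv1), 32 averaged below 0.1 FPKM, 31 averaged from 0.1 to 1 FPKM and 26 averaged at least 1 FPKM. These 26 (27.1% of the members, against 23.6% of all genes) entered the test, and 24 of them averaged at least 1 FPKM in each genotype. The other 2, Kcnj4 and Kcnt1, reached the limit through the genotype in which they were high. Kcnj10, the inward rectifier that dominates astrocytes and is no member, stood at 272 and 269 FPKM in WT and 175 and 192 FPKM in CD38 KO, above each of the 96. All members together summed to 239 and 236 FPKM in WT and to 187 and 189 FPKM in CD38 KO, and the 7 most abundant held 60.4% of the total over the 4 libraries. Without Kcna6, Kcnip1 and Kcnk10, chosen after their values were seen, the sums were 155 and 154 FPKM in WT and 143 and 145 FPKM in CD38 KO.

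**Figure D1:**
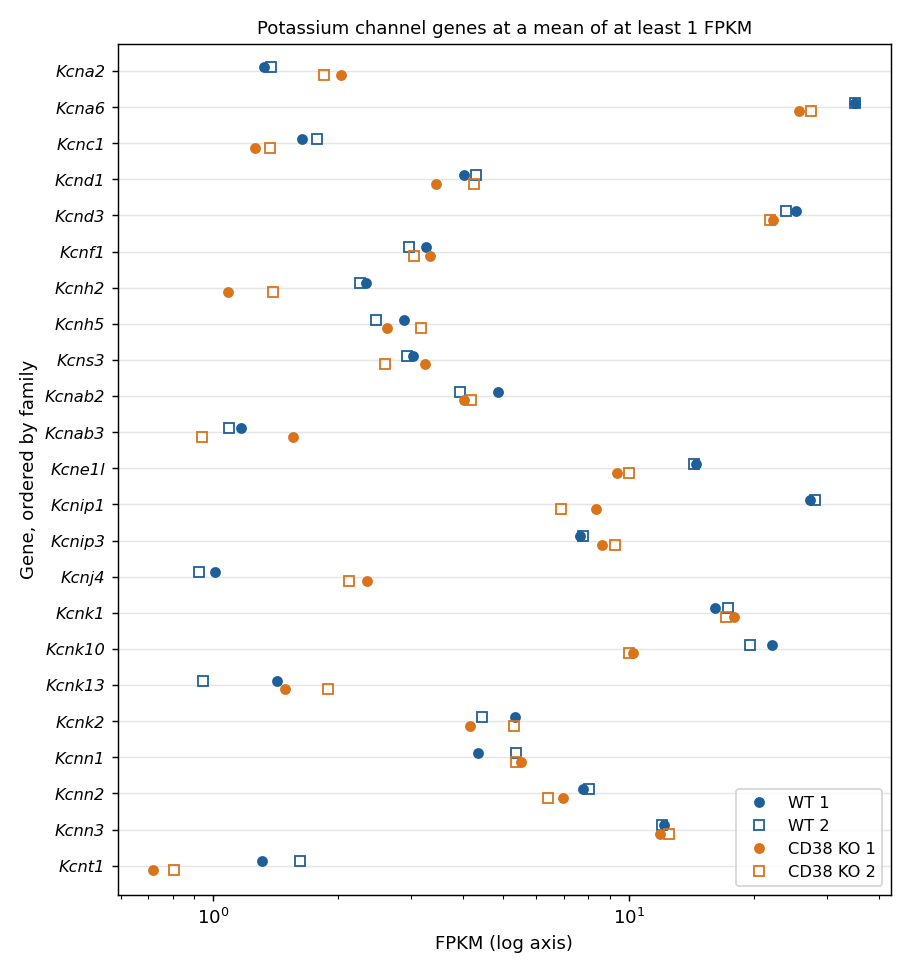
FPKM (log axis) of 23 potassium channel genes at a mean of at least 1 FPKM, ordered by family, with 1 symbol per library (blue, WT; orange, CD38 KO). Kcna6, Kcnd3 and Kcnip1 lead in WT, and Kcnip1 and Kcnk10 show the widest gaps between genotypes among the abundant members.

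Of the 26 tested members, 7 were called lower and 1 higher in CD38 KO, and 18 were not called. Among the members called lower were the voltage-gated subunits Kcna6 and Kcnh2, the leak channel Kcnk10 and the auxiliary subunits Kcnip1 and Kcne1l. The inward rectifier Kcnj4 was called higher, but it entered the test only through CD38 KO, so its call is no support for a change. Members called lower were 26.9% of those tested, where 6.35% of all 13064 tested genes were called lower, and the member called higher was 3.85%, where the background was 8.00%. The test was limma on log2(FPKM + 1) with Benjamini-Hochberg adjustment over all tested genes, and a call means an adjusted p under 0.05. The median log2 change over the tested members was -0.06, beside 0.00 over all tested genes, and it lost its sign without WT 1 (0.000398). The genotypes did not overlap in 17 tested members (65.4%, with 11 lower and 6 higher in CD38 KO), where the background was 59.9% of all tested genes, 29.5% lower and 30.4% higher. Kcnt1 among the lower and Kcnj4 among the higher passed the filter only through the genotype in which each was high. Kcnip1 and Kcnk10 were the 2 members called in all 4 fits without 1 library, as were 3.62% of all tested genes. Without 1 library fewer members were called lower in each fit, and so were fewer of all tested genes. The rise of Kcnj4 was called in none of these fits.

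**Figure D2:**
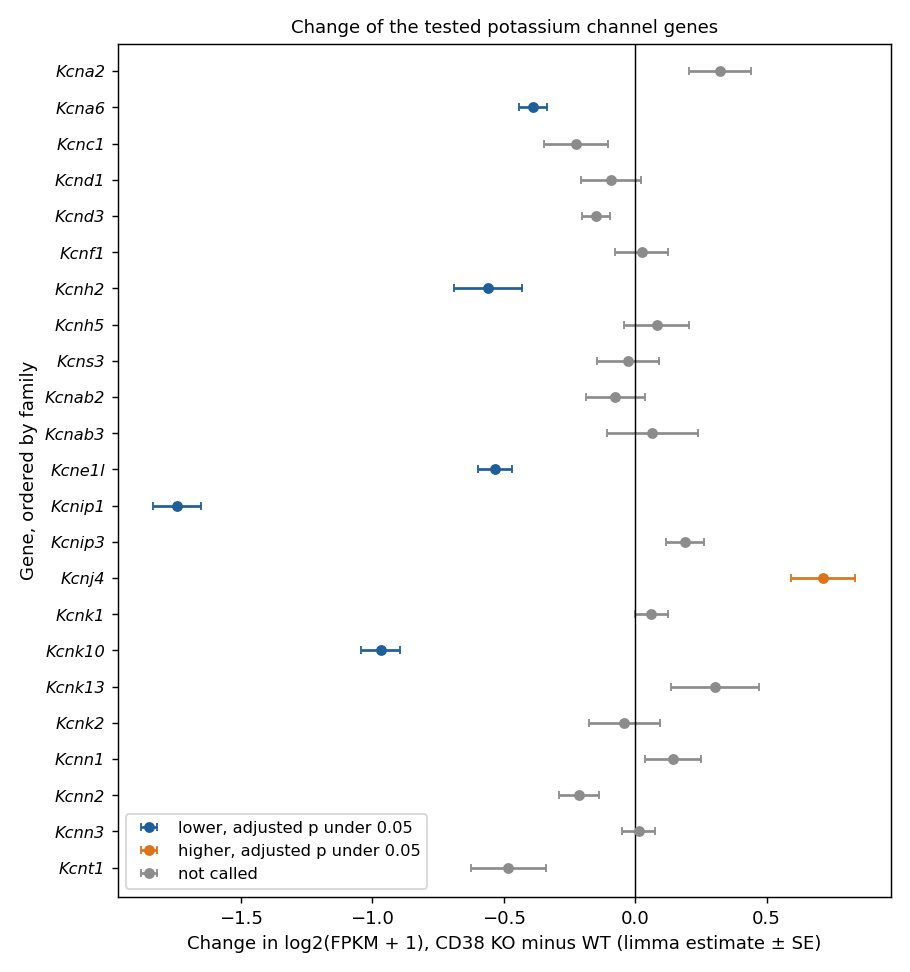
Change of 23 tested potassium channel genes between genotypes on the log2(FPKM + 1) scale, CD38 KO minus WT, with the limma standard error as the bar. Of those drawn, 5 are called lower (blue), 1 higher (orange) and 17 are not called (grey), and Kcnip1 at -1.74 and Kcnk10 at -0.97 lie farthest from 0.

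Among the voltage-gated families, Kcna6 was the most abundant member of all. Kcna6 (ENSMUSG00000038077, chromosome 6, 126708329 to 126740674), a Kv1-type delayed rectifier subunit, was at 35.1 FPKM in each WT library against 25.7 and 27.4 FPKM in CD38 KO. Both CD38 KO libraries lay below both WT libraries, a 1.32-fold fall (log2 change -0.39, SE 0.05, adjusted p = 0.0087). Its call ended without WT 1 (adjusted p = 0.0529), without WT 2 (0.0644) and without CD38 KO 1 (0.0710), and its alternatives spanned adjusted p-values of 0.00624 to 0.0710. A gene named Gm26673 overlaps Kcna6 on the opposite strand, so fragments of the pair could be mixed if counting ignored the strand. Kcna6 made up most of the Kcna level, and the family summed to 37.9 FPKM in each WT library and to 28.9 and 30.6 FPKM in CD38 KO. Its neighbours on chromosome 6 were far lower, with Kcna1 at 0.308 and 0.300 FPKM in WT and 0.104 and 0.133 FPKM in CD38 KO and Kcna5 at 0.193 and 0.249 against 0.320 and 0.332 FPKM. Kcna2 was the other tested Kcna member. It stood at 1.33 and 1.38 FPKM in WT and 2.04 and 1.85 FPKM in CD38 KO, without overlap, and was not called (log2 change 0.32, SE 0.12, adjusted p = 0.134).

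The silent subunits, which form no channel alone and modify the Kv2 channels they join, had 2 tested members, Kcnf1 and Kcns3, and neither was called. Kcnf1 was at 3.26 and 2.97 FPKM in WT and 3.33 and 3.05 FPKM in CD38 KO, and Kcns3 at 3.04 and 2.94 against 3.24 and 2.60 FPKM. The other silent subunits were lower and untested, with Kcng4 averaging 0.725 FPKM in WT and 0.586 FPKM in CD38 KO, and Kcnv1 and Kcns2 listed at 0.

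Kcnh2 (ENSMUSG00000038319, chromosome 5, 24319589 to 24351604), the ERG channel known for repolarizing the heart, was at 2.34 and 2.26 FPKM in WT against 1.09 and 1.40 FPKM in CD38 KO. It fell 1.85-fold (log2 change -0.56, SE 0.13, adjusted p = 0.0424), without overlap. Its call ended in the fits without WT 1 (adjusted p = 0.145), WT 2 (0.148), CD38 KO 1 (0.150) and CD38 KO 2 (0.0770), with no filter (0.128) and with the filter at 0.1 FPKM (0.0502), and its alternatives spanned adjusted p-values of 0.028 to 0.150. The EAG channel Kcnh5, the most abundant Kcnh gene, was at 2.88 and 2.47 FPKM in WT and 2.62 and 3.17 FPKM in CD38 KO, with overlapping genotypes and no call. Its close relative Kcnh1 averaged 0.860 FPKM and so stayed out of the test. Kcnh1 was at 1.35 and 1.14 FPKM in WT against 0.498 and 0.457 FPKM in CD38 KO, a 2.60-fold difference of means.

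Kcnq3, a subunit of the neuronal M-channel, averaged 0.567 FPKM in WT and 0.463 FPKM in CD38 KO. Its WT libraries lay at 0.572 and 0.561 FPKM and its CD38 KO libraries at 0.280 and 0.646 FPKM, so that the genotypes overlapped.

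Of the A-type channels of the Kcnd family, which open and shut fast below the firing threshold of neurons, Kcnd1 and Kcnd3 were tested and not called. Kcnd3 was the second most abundant member, at 25.2 and 23.9 FPKM in WT against 22.2 and 21.9 FPKM in CD38 KO. Its genotypes did not overlap, but the difference was not called (log2 change -0.15, SE 0.05, adjusted p = 0.130). Kcnd1 was at 4.01 and 4.30 FPKM in WT and 3.44 and 4.26 FPKM in CD38 KO, and the untested Kcnd2 averaged 0.200 and 0.110 FPKM. Kcnc1, a channel of fast-firing neurons, was at 1.64 and 1.78 FPKM in WT and 1.26 and 1.37 FPKM in CD38 KO, without overlap and without a call (log2 change -0.22, SE 0.12, adjusted p = 0.284).

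Of the auxiliary subunits, Kcnip1 showed the largest change of the 26 tested members. Kcnip1 (ENSMUSG00000053519, chromosome 11, 33629339 to 33993152) encodes a calcium-binding protein that joins Kcnd channels and carries them to the cell surface. It was at 27.3 and 28.2 FPKM in WT against 8.33 and 6.89 FPKM in CD38 KO, that is 27.7 ± 0.622 against 7.61 ± 1.02 FPKM (SD, n = 2 each). The CD38 KO libraries lay far below the WT libraries, a 3.64-fold fall (log2 change -1.74, SE 0.09, adjusted p = 0.000298). Without 1 library the log2 change ran from -1.86 to -1.62 with an adjusted p of at most 0.00636, and the range over its alternatives was 9.22e-05 to 0.0195. Kcnmb1 lies on the opposite strand within the Kcnip1 locus, and whether counting used the strand is not given in the sources used here. Gm12119 and Gm12120 also overlap Kcnip1 on the opposite strand, and 4930469K13Rik overlaps it on the same strand. The fragment estimates for Kcnmb1 were 4.0 and 5.0 in the WT libraries against 5.0 and 1.0. With Kcnip1 lower, the order of the family turned. In WT Kcnip1 exceeded Kcnip3, the KChIP that also acts in the nucleus as a calcium-sensitive repressor, whereas in CD38 KO Kcnip3 at 8.61 and 9.28 FPKM was the higher of the pair (7.65 and 7.78 FPKM in WT, log2 change 0.19, SE 0.07, adjusted p = 0.144). The whole Kcnip family summed to 35.4 and 36.3 FPKM in WT and to 17.2 and 16.5 FPKM in CD38 KO.

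Kcne1l (ENSMUSG00000090122, chromosome X, 142304752 to 142306294), also named Kcne5, encodes a small single-span subunit that damps Kcnq1 channels. It was at 14.6 and 14.4 FPKM in WT against 9.37 and 10.0 FPKM in CD38 KO, which stood for an estimated 536.9 and 558.3 fragments against 373.2 and 400.9. The fall was 1.49-fold without overlap (log2 change -0.53, SE 0.06, adjusted p = 0.00568). The call ended only in the fit without CD38 KO 1 (adjusted p = 0.0580, log2 change -0.49) among its alternatives, whose range was 0.00399 to 0.0580. Kcne1l made up nearly all of its family, since the other Kcne genes averaged below 0.1 FPKM, and Kcnq1, its known target, reached no more than 0.0504 FPKM in any library. Of the Kcnab subunits, which attach to the inner face of Kv1 channels, Kcnab2 and Kcnab3 were tested and not called, and Kcnab1 averaged 0.563 FPKM and was untested. Kcnab2 was at 4.86 and 3.93 FPKM in WT and 4.02 and 4.18 FPKM in CD38 KO, and Kcnab3 at 1.17 and 1.09 against 1.55 and 0.943 FPKM.

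**Figure D3:**
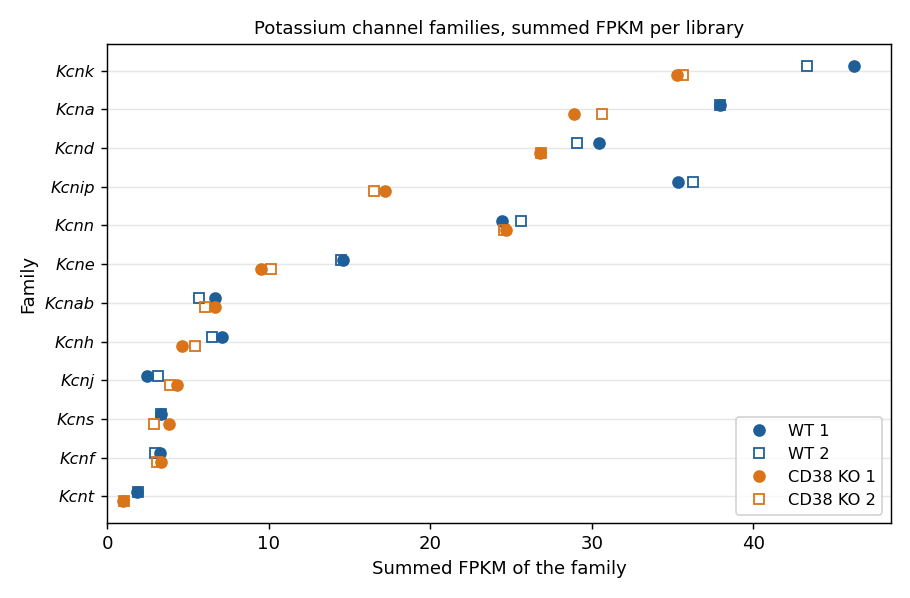
Summed FPKM of 12 potassium channel families with a mean sum of at least 1 FPKM, with 1 symbol per library (blue, WT; orange, CD38 KO). The Kcnip family falls from above 35 to about 17 FPKM, while the Kcnn family lies at 24.5 to 25.6 FPKM in all 4 libraries.

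The tandem-pore-domain Kcnk channels, which carry the resting leak, had the largest summed level of any family, 46.2 and 43.3 FPKM in WT and 35.3 and 35.6 FPKM in CD38 KO. Kcnk10 (ENSMUSG00000033854, chromosome 12, 98429437 to 98578310), a TREK channel that opens with membrane stretch and with arachidonic acid, was at 22.1 and 19.6 FPKM in WT against 10.3 and 10.0 FPKM in CD38 KO. Its means of 20.9 ± 1.77 and 10.2 ± 0.163 FPKM (SD, n = 2 each) differed 2.05-fold (log2 change -0.97, SE 0.07, adjusted p = 0.00114). The log2 change lay between -1.05 and -0.88 without 1 library, with an adjusted p of at most 0.0300, and the range over its alternatives was 0.000517 to 0.0300. Genes named 5330409N07Rik, on the same strand, and Gm40893, on the opposite strand, overlap Kcnk10, and their part in its level was not tested. The other abundant leak channels were not called. The TREK relative Kcnk2 was at 5.33 and 4.44 FPKM in WT and 4.16 and 5.30 FPKM in CD38 KO (log2 change -0.04, SE 0.13, adjusted p = 0.871). The TWIK channel Kcnk1 was at 16.1 and 17.4 FPKM in WT and 17.9 and 17.1 FPKM in CD38 KO (log2 change 0.06, SE 0.06, adjusted p = 0.572), so that Kcnk10 led the family in WT and Kcnk1 in CD38 KO. Whether the change of Kcnk10 differs from theirs was not tested.

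Inward rectifiers other than the excluded Kcnj10 were scarce, and Kcnj4 alone among the 13 Kcnj members averaged at least 1 FPKM over the 4 libraries. Kcnj4 (ENSMUSG00000044216, chromosome 15, 79483714 to 79505241), a strong inward rectifier of the Kir2 group, was at 1.01 and 0.927 FPKM in WT against 2.34 and 2.13 FPKM in CD38 KO. These values stood for some 53.9 and 52.0 fragments against 134.7 and 123.0. Its level was 2.31-fold higher without overlap (log2 change 0.72, SE 0.12, adjusted p = 0.0176). With means of 0.970 FPKM in WT and 2.24 FPKM in CD38 KO, it passed the filter at 1 FPKM only through CD38 KO. That is the genotype in which it was high, so its call is no support for a change. The call ended without WT 1 (adjusted p = 0.0633), WT 2 (0.0856), CD38 KO 1 (0.0999) and CD38 KO 2 (0.0691), and with no filter (0.0700), and its alternatives spanned adjusted p-values of 0.00729 to 0.0999. Kcnj13, a channel of choroid plexus and retinal pigment epithelium, differed more within genotypes than between them, at 0.213 and 0.921 FPKM in WT and 1.01 and 0.267 FPKM in CD38 KO. The vascular Kcnj8 stayed at or below 0.0328 FPKM in each library.

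Promoter sequence is given for Kcnj4 and Kcna6, the member called higher and the most abundant member called lower. Each has a single start in the RefSeq table for GRCm38.p6. The table held promoters for 69 of the 96 members and for 6 of the 8 called ones. Both strands of the 250 bases before each start were searched for GGGCGG, the core of the GC box, and for TGACG, the core of the cAMP response element, of which 32.7% and 17.8% of all 32851 promoters held at least 1, as they did for TATAAA (12.4%) and CACGTG (6.02%). Capitals mark the matches, 2 of which can touch. Kcnj4 is chr15:79505242-79505491 and Kcna6 is chr6:126740675-126740924, both on the minus strand.
Kcnj4: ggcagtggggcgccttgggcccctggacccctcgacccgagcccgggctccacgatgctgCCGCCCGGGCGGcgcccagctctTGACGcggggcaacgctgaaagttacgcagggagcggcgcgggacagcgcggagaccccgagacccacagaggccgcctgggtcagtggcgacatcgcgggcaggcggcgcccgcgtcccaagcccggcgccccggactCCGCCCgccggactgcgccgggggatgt
Kcna6: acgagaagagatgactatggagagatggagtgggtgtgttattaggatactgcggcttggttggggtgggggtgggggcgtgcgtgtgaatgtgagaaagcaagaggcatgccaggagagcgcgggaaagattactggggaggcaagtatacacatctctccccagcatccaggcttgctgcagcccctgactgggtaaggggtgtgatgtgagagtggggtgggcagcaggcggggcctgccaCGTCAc
The Kcnj4 window held 3 GGGCGG and 1 TGACG with 35 CpG and 77.2% G or C, and the Kcna6 window held 0 GGGCGG and 1 TGACG with 8 CpG and 58.8% G or C, where the median promoter had 6 CpG and 52.4% G or C. Neither held TATAAA or CACGTG. Over the 8 promoters of members called lower the median was 8.5 CpG and 61.4% G or C. Kcnip1 and Kcnk10 each entered these 8 with more than 1 start, so they are not 1 promoter per gene. Over the 22 promoters of tested members not called it was 9 CpG and 60.2%. Which starts these libraries used was not measured.

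None of the calcium-activated small-conductance channels, which open when calcium rises inside the cell, was called. Kcnn3 was at 12.2 and 12.0 FPKM in WT and 11.9 and 12.5 FPKM in CD38 KO (log2 change 0.01, SE 0.06, adjusted p = 0.909). Kcnn2 was at 7.79 and 8.02 FPKM in WT and 6.97 and 6.40 FPKM in CD38 KO, without overlap (log2 change -0.21, SE 0.08, adjusted p = 0.126). Kcnn1 averaged 4.84 FPKM in WT and 5.43 FPKM in CD38 KO (log2 change 0.14, SE 0.11, adjusted p = 0.426). Both CD38 KO libraries (5.51 and 5.36 FPKM) lay above both WT libraries (4.34 and 5.35 FPKM), but WT 2 and CD38 KO 2 nearly met. The sodium-activated Kcnt1 had the largest difference among tested members that were not called. Kcnt1 passed the filter at 1 FPKM only through WT, the genotype in which it was high, so this rank is no support for a change. It was at 1.31 and 1.62 FPKM in WT and 0.718 and 0.806 FPKM in CD38 KO, a 1.92-fold difference of means (log2 change -0.48, SE 0.14, adjusted p = 0.0816). The large-conductance pore gene Kcnma1 averaged 0.101 FPKM in WT and 0.186 FPKM in CD38 KO, and its beta subunits averaged no more than 0.194 FPKM in either genotype.

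Some of the channels known from microglia and macrophages, 4 in number and no complete list, are given here, and only Kcnk13 of them was tested. The summed microglia and macrophage markers were at 192 and 177 FPKM in WT and 1000.4 and 892 FPKM in CD38 KO. Kcnk13, the THIK leak channel of microglia, was at 1.43 and 0.948 FPKM in WT and 1.49 and 1.89 FPKM in CD38 KO, without overlap and without a call (log2 change 0.30, SE 0.17, adjusted p = 0.286). The untested Kcnk6 averaged 0.0812 FPKM in WT and 0.259 FPKM in CD38 KO. Also untested, Kcnn4, the intermediate-conductance channel of macrophages and T cells, averaged 0.197 and 0.265 FPKM, and Kcna3, the voltage-gated channel of the same cells, 0.587 and 0.635 FPKM. For Kcna3 the fragment estimates, not scaled for depth, were 28.9 and 27.0 against 30.9 and 33.0. Its FPKM were 0.622 and 0.551 in WT and 0.616 and 0.654 in CD38 KO, so that the genotypes overlapped.

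The 31 members averaging from 0.1 to 1 FPKM were outside the main test. In 10 of them both CD38 KO libraries were below both WT libraries, in 7 both were above, and in 14 the genotypes overlapped, where 22.8% of 5234 genes in this range lay below, 23.4% above and 46.3% either way. With the filter lowered to 0.1 FPKM, 1 of the 31 was called lower, Kcnh1 (log2 change -0.60, SE 0.10, adjusted p = 0.0313), and 1 higher, Kcnab3os, where 4.03% and 5.24% of 18298 genes were called, or 9.26% in either direction. Without any filter neither was called (adjusted p = 0.0735 and 0.0639). Kcnab3os, listed at 0 and at 0.0893 FPKM in WT against 0.521 and 0.432 FPKM in CD38 KO (log2 change 0.50, SE 0.09, adjusted p = 0.0427), passed this filter only through CD38 KO, the genotype in which it was high, so its call is no support for a change. It runs opposite to Kcnab3 and lies within it, so their fragments cannot be told apart if counting ignored the strand. The Kv1 subunit Kcna4 was at 0.353 and 0.339 FPKM in WT against 0.0223 and 0.168 FPKM in CD38 KO (adjusted p = 0.147 at the same filter). Kcnip4, the member nearest to the deleted gene at 4.48 Mb from Cd38 on chromosome 5, was at 0.288 and 0.328 FPKM in WT and 0.178 and 0.106 FPKM in CD38 KO (adjusted p = 0.240). The 32 members averaging below 0.1 FPKM, among them Kcnj2, Kcnj8, Kcnq1 and Kcnb2, reached at most 0.216 FPKM in a single library.

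**Figure D4:**
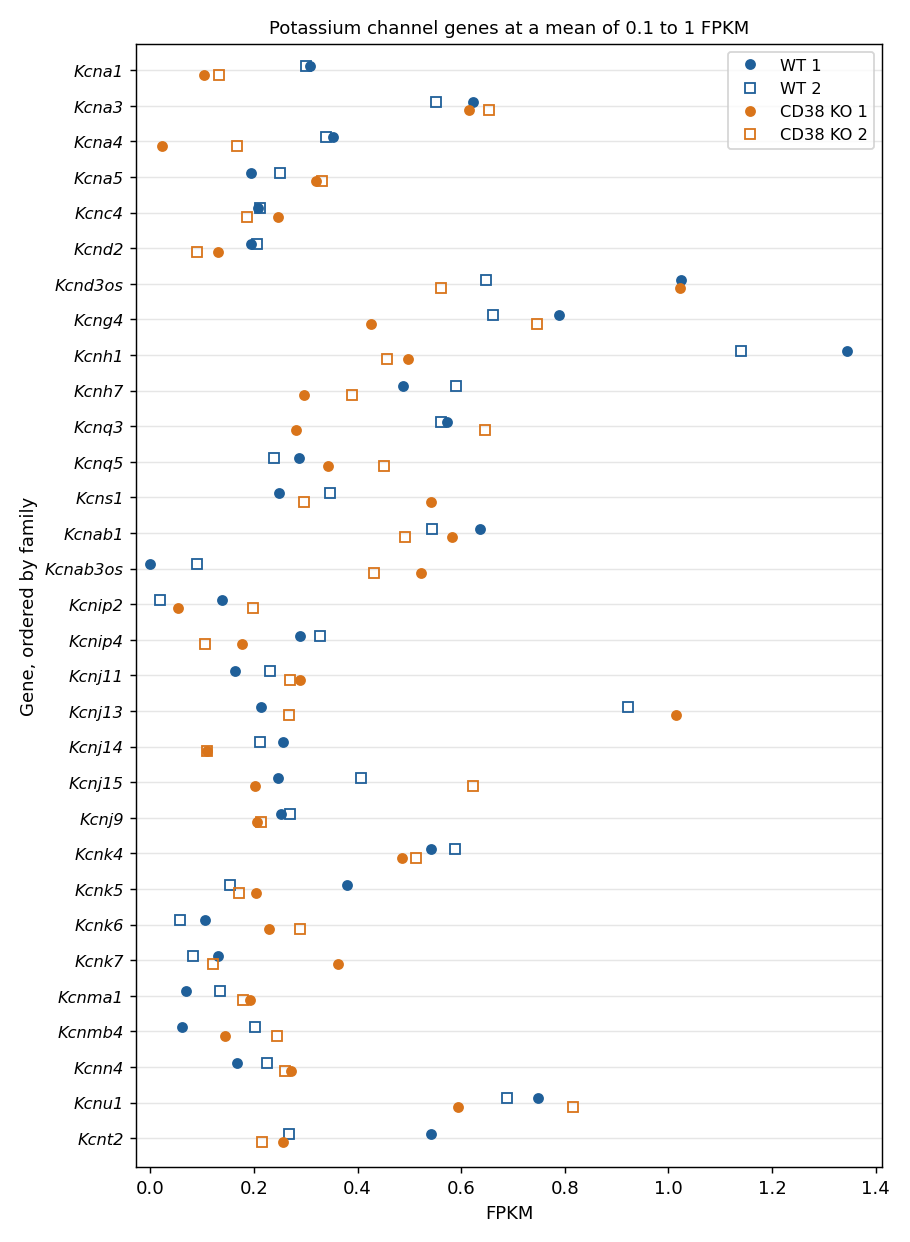
FPKM of the 31 potassium channel genes averaging from 0.1 to 1 FPKM, ordered by family, on a linear axis, with 1 symbol per library (blue, WT; orange, CD38 KO). Kcnh1 is above 1.1 FPKM in both WT libraries and below 0.5 FPKM in both CD38 KO libraries, while Kcnj13 spreads as widely within genotypes as between them.

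Partners of these channels in handling potassium were read from the same test, with 48 genes listed (accessory proteins, the sodium pump and its regulators, cation-chloride cotransporters, HCN channels and the astrocyte rectifiers) and 30 tested. Of the 30, 7 were called lower and 1 higher, beside 6.35% and 8.00% of all tested genes, with a median log2 change of -0.07. The sodium pump, which drives potassium into the cell, was lower in its subunit Atp1b2 (adjusted p = 0.0409). The pump regulator Fxyd1 fell from 100.3 and 103.0 FPKM in WT to 57.4 and 47.6 FPKM in CD38 KO (adjusted p = 0.00254), and Kcnj10, whose values stand above, fell 1.47-fold (adjusted p = 0.00284). The scaffold Dlg1 fell from 58.0 and 57.7 FPKM to 47.2 FPKM in each CD38 KO library (adjusted p = 0.0112) and the laminin receptor Dag1 from 115.8 and 116.4 to 100.2 and 100.8 FPKM (adjusted p = 0.0248). Nedd4l, a ubiquitin ligase for membrane transporters, was also called lower. Fxyd5, another pump regulator, rose from 1.79 and 1.71 FPKM to 6.40 and 6.54 FPKM (log2 change 1.44, SE 0.09, adjusted p = 0.000492). Fxyd1, Kcnj10 and Fxyd5 were called in each fit without 1 library. Atp1b2, Dlg1 and Dag1 lost the call in all 4 of those fits and Nedd4l in those without WT 1, WT 2 or CD38 KO 1, with the highest adjusted p at 0.190 for Atp1b2.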

How the data were processed

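RNA from 4 libraries of primary mouse cortical astrocytes, 2 per genotype, was analysed from 1 file per library. The deposited values are FPKM per gene, per the file headers, for 55467 Ensembl gene IDs. Libraries were stranded with polyA selection, per the labels' protocols, and GRCm38, Cufflinks 2.2.1, STAR 2.7.0f and bcl2fastq 2.17 are listed in the submitters' processing notes. Not given in the sources used here are the annotation release, any use of the strand and any scaling across libraries. Positions came from GENCODE M21 on GRCm38, which held all 96 members.

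The 13064 genes averaging 1 FPKM or more entered limma 3.58.1 (R 4.3.3) as log2(FPKM + 1), modelled on genotype alone, with trended empirical Bayes moderation and Benjamini-Hochberg adjustment at 0.05. The added 1 understates changes of low genes, so fold changes are ratios of mean FPKM. No count test was run, since FPKM are not counts. Fragment totals (26800000 and 28300000 in WT, 29000000 and 29100000 in CD38 KO) were estimated from the steps of low values in 17444 genes with 1 transcript longer than 600 bases, where 91.7% to 92.4% of values below 10 fragments lay within 0.1 of a whole number. The fit and the depth estimate were tested on simulated data. Other steps used Python 3.11.15.

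Members and lists were chosen with earlier results of these data known. Values per library are given for called members, for the most abundant member of each family that reaches 1 FPKM, and for others as noted, and of the partner list for up to 4 called genes of smallest p in each direction. Other partners and low members were named after their values were seen. Alternatives were 0.1 or 0.5 added before the log, no filter, filters at 0.1 and 5 FPKM, quantile and median-of-ratios scaling, a replicate block, other moderation and each library left out. A block with crossed replicate numbers was chosen after seeing the data. Some genes are not reported here by name, in text or figures, but remain in all counts, sums and tests.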

Additional observations from a re-analysis of the deposited data

How the results depend on the processing

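The members called lower numbered 5 to 8 under the alternatives that kept all 4 libraries, against 7. Of all tested genes 1.17% to 7.35% were called lower under those alternatives, against 6.35%. In each fit without 1 library fewer members and fewer of all tested genes were called lower. The 1 member called higher became 2 with 0.1 added before the log, with a filter at 0.1 FPKM and without a trend, and 0 with no filter, with a filter at 5 FPKM, with the replicate block and in every fit without 1 library. By limma at an unadjusted p under 0.05 those settings held 7, 2, 2 and 2 to 3 higher members. The median log2 change of the tested members moved from -0.06 to 0.0016 with no filter, -0.0396 at a filter of 0.1 FPKM, -0.21 at 5 FPKM and -0.12 with quantile normalization, and ran from -0.12 to 0.000398 without 1 library, so its sign was not stable. Partners called higher numbered 2 with 0.1 added, with a filter at 0.1 FPKM and without a trend, 3 with robust moderation, 0 at 5 FPKM and 2 with the crossed block, and 1 in every fit without 1 library. Partners called lower numbered 3 with no filter, 4 at 0.1 FPKM, 3 with the replicate block, 3 without a trend and 2 to 4 without 1 library. Over all genes 742 were called with no filter, 1037 with the replicate block and 632 to 899 without 1 library, against 1875. Same-numbered libraries deviated from their group means with r = -0.16 over 13064 genes, and crossed ones with r = 0.16. With 2 libraries per genotype these 2 values are bound to be equal and opposite. The labels do not say that a number marks a shared culture, so whether same-numbered libraries share more than a number is not known. With the replicate block the calls of Kcnh2 (adjusted p = 0.0936) and Kcnj4 (0.0519) ended. With the numbers crossed 1961 genes were called, among them 6 members lower and 1 higher. The 32 members above 0 and under 0.1 FPKM rest on few fragments and were not tested in the main fit. The filters also changed which genes were read, with 89 members tested with no filter, 57 at 0.1 FPKM and 13 at 5 FPKM, against 26. Medians under these filters are therefore over other sets of members. Neither Kcnj4 nor Fxyd5 entered the fit at 5 FPKM, so the 0 called higher there are not lost calls. Other causes of these shifts were not tested.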
